A study of Mus musculus with 12 samples.

Results

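The 10 genes described here encode the proteins that carry a lipopolysaccharide (LPS) signal from the cell surface to the first kinases inside the cell: the co-receptors Cd14 and Ly96, the adaptors Myd88, Tirap, Ticam1 and Ticam2, and the interleukin-1 receptor-associated kinases Irak4, Irak1, Irak2 and Irak3. They were chosen by name, with earlier results of these data known. Every array probe whose RefSeq accession belongs to these symbols was taken, whatever its values. This gave 14 probes for 10 of the 13168 genes tested. All 14 probes were well above background on all 12 arrays, so that every member passed the filter on dim probes in every group.

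LPS is a cell wall component of Gram-negative bacteria. CD14 passes it to a complex of LY96, also called MD-2, and the receptor TLR4. At the plasma membrane TIRAP and MYD88 link this complex to IRAK4, which activates IRAK1 and IRAK2 and leads to NF-kappa B target genes such as Tnf. From endosomes TICAM2 (TRAM) and TICAM1 (TRIF) link it to TBK1 and to interferon beta. IRAK3, also called IRAK-M, is known in macrophages as a brake on the MYD88 arm.

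RNA came from peritoneal macrophages of wild-type C57BL/6 mice, with 4 one-colour arrays in each of 3 groups. The vehicle controls were labelled 8 weeks old, 2 from females and 2 from males. The LPS+IFNg group received 100 ng/ml LPS with 20 ng/ml interferon gamma, and the LPS+IFNg+emodin group received the same with 50 µM emodin, a plant anthraquinone; both were labelled female and 9 weeks old. All cells were taken at 20 h, had been selected by adherence to plastic 2 h after plating, and had spent a night without serum. The labels call the cells peritoneal macrophages, whereas the series' design text names polymorphonuclear blood leukocytes. The labels do not name the animal behind a sample, so a p-value covers the variation among these arrays, which may be technical. All levels below are log2 processed signal minus the 75th percentile of the array, and they compare arrays for 1 probe, not probes with each other.

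Several features of the arrays touch the results. The controls lay on another slide than the 8 treated arrays, so that slide, age and treatment cannot be told apart in a comparison with control. Of the 12 arrays 4 went against their sex label: replicate 3 of both treated groups had the Y-linked transcripts, and control replicates 3 and 4, labelled male, had Xist and no Y-linked transcript. Without these 4 arrays the comparisons described below called 6, 7 and 8 of the 10 members instead of 8, 7 and 9; the calls lost were Irak2 and Irak4 with LPS+IFNg against control and Cd14 with emodin against control. The 75th percentile of signal was 633 to 810 on control arrays, 637 to 795 on LPS+IFNg arrays and 370 to 466 on emodin arrays. The mean log2 signal of the spike-in RNAs was 10.53 to 10.98 on control arrays and 13.18 to 13.44 on the 8 treated arrays. This gap follows slide, age label and treatment alike, and its part in the comparisons with control was not tested. The median gene's log2 signal was lower on the emodin than on the LPS+IFNg arrays by a difference of -0.89 ± 0.10 (SE, n = 4 per group; exact two-sided permutation p = 0.0286, the smallest that 4 against 4 can give), whereas the spike-in RNAs differed by -0.09 ± 0.06 (exact p = 0.2). Scaling to the spike-ins instead of the percentile was run for emodin against LPS+IFNg alone, so the comparisons with control have no spike-in value. There it took the median gene's difference of emodin against LPS+IFNg from -0.01 to -0.67. It turned 4617 higher and 4840 lower genes into 1202 and 8522. The differences given here thus refer to the percentile of each array, and the spike-in value stands beside each emodin result against LPS+IFNg of a member whose call or direction it changed.

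All 7 macrophage markers with a probe were well above background on every array. Their summed level, relative to the percentile, was 621 to 640 in controls, 410 to 482 with LPS+IFNg and 500 to 582 with emodin. Such a sum mostly reflects its brightest genes. The counts of markers below stand beside 33.8% of all genes higher and 35.2% lower with LPS+IFNg against control. With emodin against LPS+IFNg these shares were 35.1% and 36.8%. Of these 7, 3 rose and 4 fell with LPS+IFNg against control, and 2 rose and 5 fell with emodin against LPS+IFNg. Of 10 neutrophil markers with a probe, Ngp was above background on no array, and the summed level was 29.4 to 42.1, 26.1 to 31.2 and 31.6 to 38.9. Among the 7 tested, 2 rose and 4 fell with LPS+IFNg against control, and 5 rose and 2 fell with emodin against LPS+IFNg. Mesothelial and fibroblast markers summed to 20.7 to 87.8 in controls, 83.3 to 161 with LPS+IFNg and 12.8 to 41.8 with emodin. With LPS+IFNg against control 3 of 10 tested rose and 4 fell, so the higher sum was not shared by all. With emodin against LPS+IFNg 6 of the 10 fell. Markers of large peritoneal macrophages summed to 10.1 to 11.6, 4.81 to 6.08 and 3.14 to 4.51. Of 5 tested, 1 rose and 4 fell with LPS+IFNg against control, and 2 rose and 3 fell with emodin against LPS+IFNg. T and NK cell markers summed to 4.21 to 4.77, 10.0 to 11.7 and 9.79 to 13.7. Of the T and NK markers tested, Lck rose with LPS+IFNg by 3.52 and Cd3e fell by 1.18. B cell markers summed to 1.03 to 2.37, 0.661 to 2.07 and 0.147 to 0.350, and mast cell markers to 0.472 to 1.51, 0.455 to 0.968 and 0.521 to 1.27. The part of these cells in the results below was not tested, and fewer cells of a type cannot be told apart from less RNA per cell.

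With LPS+IFNg against control, 8 of 10 members passed limma's adjusted p of 0.05, beside 69.0% of all 13168 genes. Of the members 5 were higher and 3 lower, beside 33.8% and 35.2% of all genes. Myd88 and Irak3 were the 2 members that changed at least 2-fold, both upward; 26.3% of all genes did so, 14.2% upward. For 8 members no treated array overlapped the controls, beside 64.3% of all genes. With emodin added to LPS+IFNg, 7 of 10 members were called, beside 71.8% of all genes, 3 higher and 4 lower, beside 35.1% and 36.8%. Ticam1 was the member that rose at least 2-fold, and Myd88, Tirap, Irak4 and Irak3 fell at least 2-fold; 9.98% and 16.5% of all genes did so, 26.5% in all. The arrays did not overlap for 7 members, beside 67.4% of all genes. The counts of calls thus lie near those of all genes, and what follows is the size and direction of each member's change. The median absolute log2 difference of the 10 members was 0.59 for LPS+IFNg against control, beside 0.51 for all genes, and 0.86 for emodin against LPS+IFNg, beside 0.55. The value of 0.86 counts Irak4 at -1.25 by its brighter probe. The other Irak4 probe gave -0.02, so this median depends on the probe taken.

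**Figure D1:**
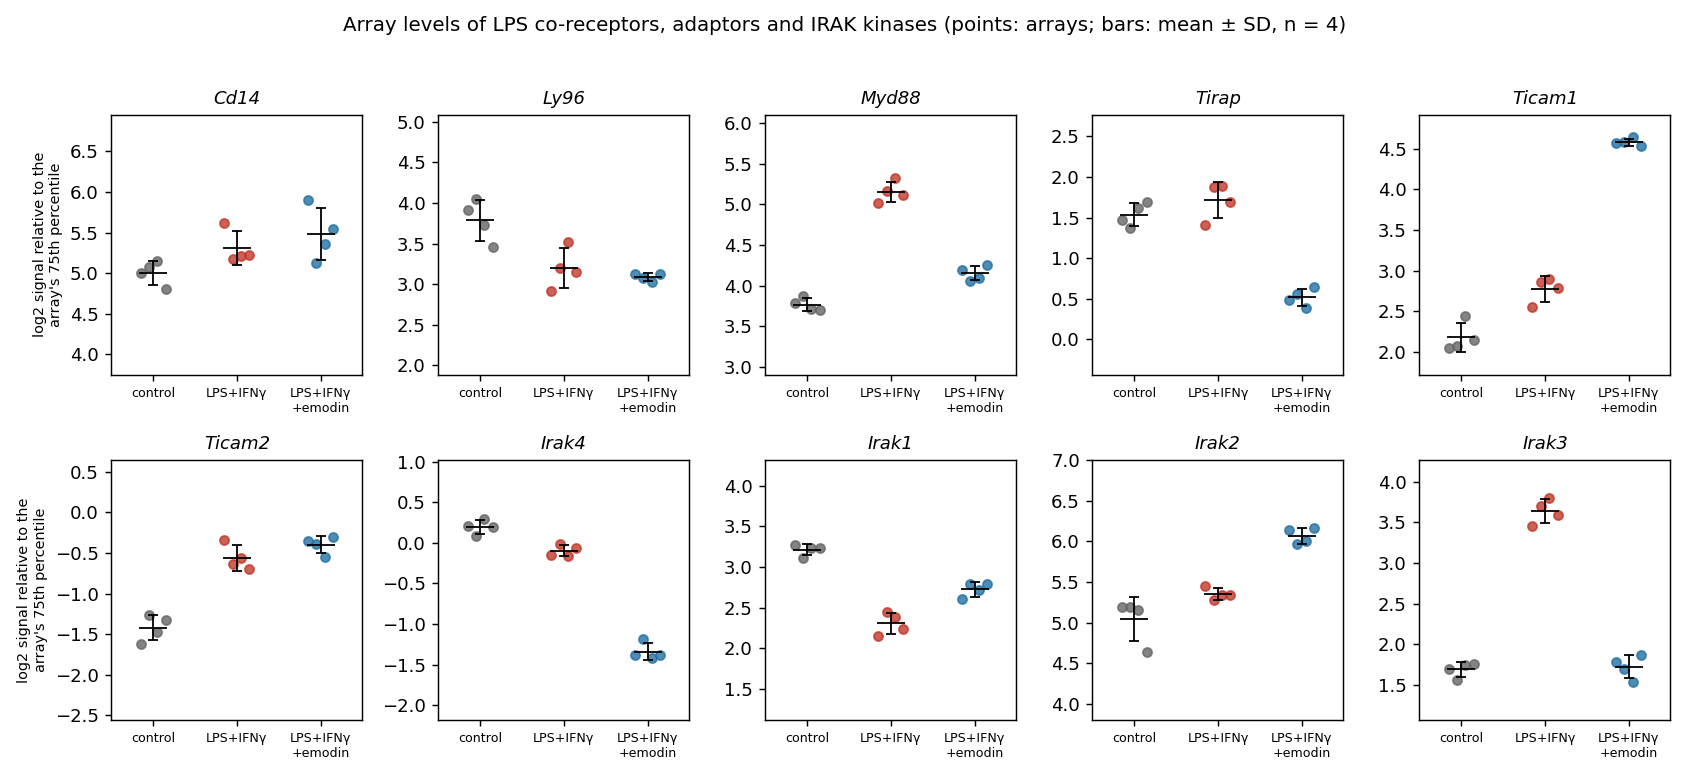
Log2 signal relative to the 75th percentile of each array (vertical axis, every panel spanning the same log2 range) for the 10 members in the 3 groups; points are arrays, and the bars give the mean ± SD of 4 arrays. Myd88 and Irak3 are high in the LPS+IFNg arrays and low again with emodin, Ticam1 is high with emodin, and Tirap and Irak4 are low with emodin.

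Neither co-receptor was called with emodin against LPS+IFNg, and Ly96 fell with LPS+IFNg. Cd14, which binds LPS and hands it to the receptor complex, had levels of 4.80 to 5.15 in controls, 5.62, 5.18, 5.21 and 5.22 with LPS+IFNg, and 5.90, 5.13, 5.36 and 5.54 with emodin. All LPS+IFNg arrays lay above all controls, by a narrow margin, and the treated groups overlapped. The difference of LPS+IFNg from control was 0.30 ± 0.16 (SE, n = 4 per group) on the log2 scale, with an adjusted p of 0.108 from limma and a 95% interval of -0.04 to 0.65; with normexp background correction it was 0.41 and called (adjusted p 0.0269), and with quantile scaling 0.10 (adjusted p 0.541). Emodin against LPS+IFNg gave 0.18 ± 0.16, adjusted p 0.333, interval -0.17 to 0.52, and emodin against control gave 0.48 ± 0.16, adjusted p 0.0151 (0.0894 without the 4 arrays that oppose their sex labels). With spike-in scaling the emodin against LPS+IFNg difference of Cd14 was -0.49 with an adjusted p of 0.0111, so its direction depends on the scaling.

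Ly96 encodes the small protein that holds the lipid part of LPS on TLR4. Its levels were 3.91, 4.05, 3.73 and 3.46 in controls, 2.92, 3.20, 3.52 and 3.15 with LPS+IFNg, and 3.13, 3.07, 3.03 and 3.12 with emodin. Replicate 3 of LPS+IFNg, at 3.52, overlapped the lowest control, at 3.46. Ly96 fell with LPS+IFNg by 0.59 ± 0.14 (adjusted p 0.00236) and was lower with emodin than in controls by a log2 difference of -0.70 ± 0.14 (adjusted p 0.000539). The treated groups differed by -0.11 ± 0.14, adjusted p 0.486, with an interval of -0.41 to 0.19. Without replicate 3 of both treated groups that difference was 0.01, and with spike-in scaling it was -0.77 with an adjusted p of 0.00148.

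Among the adaptors, Myd88 and Ticam1, which head the arms of the pathway, moved in opposite directions when emodin was added. Myd88, the adaptor shared by most Toll-like receptors and the interleukin-1 receptor family, had levels of 3.79, 3.87, 3.71 and 3.70 in controls. With LPS+IFNg they were 5.02, 5.16, 5.32 and 5.12, and with emodin 4.19, 4.06, 4.10 and 4.25. The 3 groups did not overlap, and emodin arrays lay between controls and LPS+IFNg, nearer to controls. Myd88 rose 2.61-fold with LPS+IFNg, a log2 difference of 1.39 ± 0.08 (adjusted p 1.74e-08). It fell 2.01-fold with emodin, by 1.00 ± 0.08 (adjusted p 3.61e-07), and remained above control by 0.38 ± 0.08 (adjusted p 0.000762). That last difference was smaller under other scalings, at 0.17 with quantile scaling (adjusted p 0.0406) and 0.21 with the percentile taken over probes detected on all arrays (adjusted p 0.0185). Its probe is printed on 10 spots, of which 9 or 10 were usable on each array, and their log2 values within an array had an SD of 0.0303 to 0.0741. With spike-in scaling the fall with emodin was larger, at -1.67. Across all settings this difference ran from -1.67 to -0.93, always called but not always 2-fold.

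Ticam1, the adaptor of TLR3 and of TLR4 in endosomes, was at 2.05, 2.07, 2.44 and 2.15 in controls. It was at 2.55, 2.86, 2.90 and 2.79 with LPS+IFNg, and at 4.57, 4.58, 4.64 and 4.54 with emodin. The groups did not overlap, and the emodin arrays were the closest together, with an SD of 0.04. Ticam1 rose 1.51-fold with LPS+IFNg, by 0.59 ± 0.10 (adjusted p 0.000209), and a further 3.50-fold with emodin, by 1.81 ± 0.10 (adjusted p 2.21e-08). Emodin arrays were 5.29-fold above controls, a log2 difference of 2.40 ± 0.10 (adjusted p 7.2e-10). The rise with emodin was 1.14 with spike-in scaling, adjusted p 4.61e-05, and Ticam1 was then the member that rose with emodin while 7 others fell.

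Because subtracting a percentile or a spike-in mean leaves the difference between genes on the same array as it is, Ticam1 was also set against Myd88 within each array. That difference was lower with LPS+IFNg than in controls by -0.79 ± 0.12 (SE, n = 4 per group), and higher with emodin than with LPS+IFNg by 2.81 ± 0.07, which is a 7.03-fold shift of their ratio. No array of 1 group overlapped another. The pair was picked after its values were seen, so no test is given.

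Tirap and Ticam2 are the bridging adaptors that bring MYD88 and TICAM1 to the receptor. Tirap was at 1.47, 1.37, 1.62 and 1.69 in controls, at 1.41, 1.88, 1.89 and 1.69 with LPS+IFNg, and at 0.48, 0.56, 0.39 and 0.64 with emodin. Controls and LPS+IFNg overlapped, and every emodin array was below all others. The difference of LPS+IFNg from control was 0.18 ± 0.11, adjusted p 0.185, with an interval of -0.07 to 0.43; without LPS+IFNg replicate 1 it was 0.28 with an adjusted p of 0.0259. With emodin Tirap fell 2.29-fold, by 1.20 ± 0.11 (adjusted p 1.96e-06), to below controls by -1.02 ± 0.11 (adjusted p 5.03e-06).

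Ticam2 rose 1.81-fold with LPS+IFNg, by 0.86 ± 0.10 (adjusted p 1.24e-05). Its levels were -1.62, -1.27, -1.47 and -1.32 in controls, -0.34, -0.64, -0.56 and -0.70 with LPS+IFNg, and -0.35, -0.39, -0.55 and -0.30 with emodin. The treated groups overlapped each other and neither overlapped controls. Their difference was 0.17 ± 0.10, adjusted p 0.164, with an interval of -0.06 to 0.39; it was called without LPS+IFNg replicate 1, at an adjusted p of 0.0494, and was -0.50 with spike-in scaling, adjusted p 0.00552. Of the pair of bridging adaptors, Tirap therefore passed the test in the emodin comparison and Ticam2 in the comparison of LPS+IFNg with control; whether they differ from each other was not tested.

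**Figure D2:**
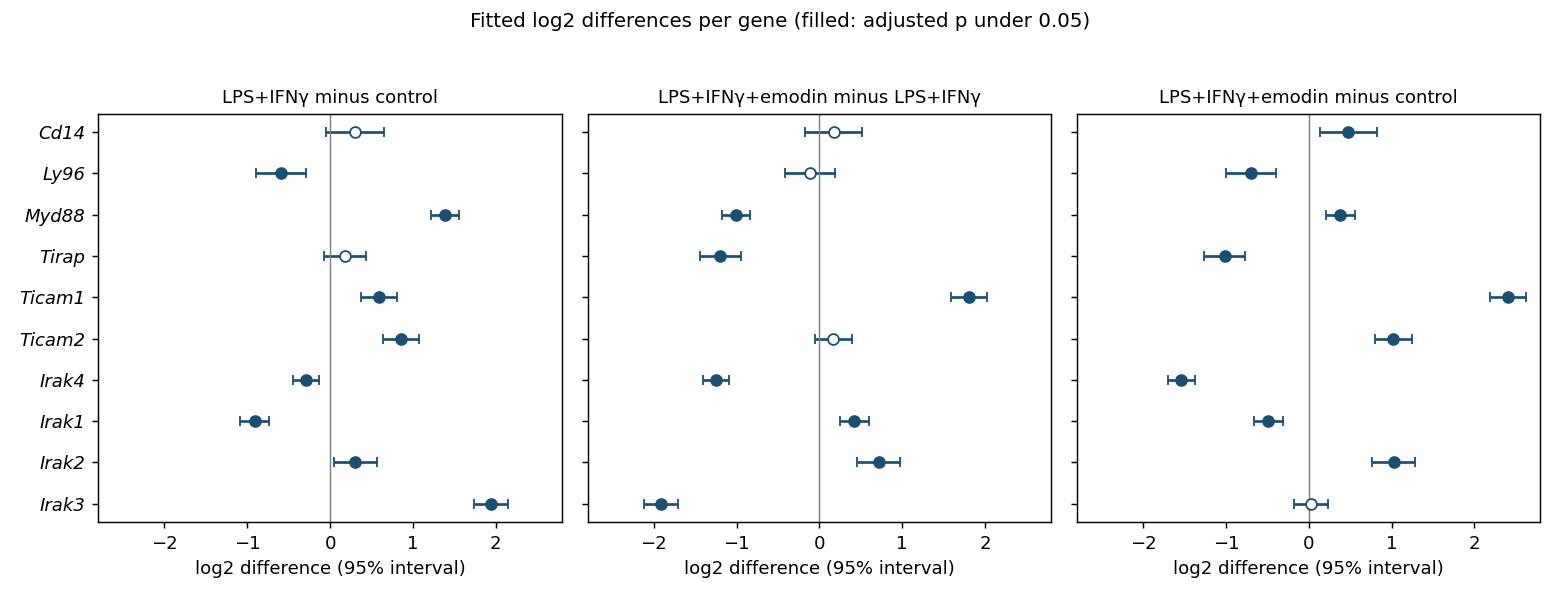
Log2 difference per gene (horizontal axis) with its 95% interval from the limma fit, for LPS+IFNg minus control, LPS+IFNg+emodin minus LPS+IFNg and LPS+IFNg+emodin minus control; filled points had an adjusted p under 0.05. The largest differences are the rise of Irak3 by 1.95 in the first panel, its fall by 1.92 and the rise of Ticam1 by 1.81 in the second, and the difference of 2.40 for Ticam1 in the third.

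Of the kinases, Irak3 had the largest response among the 10 members to LPS+IFNg and to emodin. Irak3, an IRAK without kinase activity, was at 1.69, 1.56, 1.75 and 1.76 in controls. With LPS+IFNg it was at 3.46, 3.70, 3.80 and 3.59, and with emodin at 1.78, 1.70, 1.54 and 1.87. The LPS+IFNg arrays lay above all others, and the emodin arrays overlapped the controls. Irak3 rose 3.86-fold, by 1.95 ± 0.09 (adjusted p 4.14e-09), and fell 3.78-fold with emodin, by 1.92 ± 0.09 (adjusted p 9.28e-09). Emodin and control arrays differed by 0.03 ± 0.09, adjusted p 0.772, and the 95% interval of -0.17 to 0.24 bounds what remained. The sign of that small difference varied with scaling, from -0.14 upward. With spike-in scaling the fall from LPS+IFNg was -2.58.

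Irak2, the IRAK known to sustain TLR signalling late in a response, was at 5.19, 5.19, 5.16 and 4.64 in controls by its brighter probe, A_55_P2082979. With LPS+IFNg it was at 5.45, 5.28, 5.34 and 5.34, and with emodin at 6.14, 5.97, 6.00 and 6.16. The groups did not overlap, and control replicate 4 stood below the other controls. The rise with LPS+IFNg was 0.31 ± 0.12, adjusted p 0.0353, and without control replicate 4 it was 0.17 with an adjusted p of 0.0516. The call was also lost without LPS+IFNg replicates 1, 3 or 4 (adjusted p 0.0826, 0.0595 and 0.0603) and with the replicate number as a block over 8 arrays (adjusted p 0.0690). It was lost with each other scaling or background correction too: quantile scaling gave 0.10 (adjusted p 0.381), the percentile over detected probes 0.19 (0.138) and normexp 0.24 (0.125). Emodin against LPS+IFNg gave a 1.64-fold rise, 0.72 ± 0.12 (adjusted p 0.000166), which was 0.05 with spike-in scaling, adjusted p 0.706.

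The second Irak2 probe, A_55_P2082974, gave the same directions with tighter groups. It was at -0.29, -0.23, -0.21 and -0.32 in controls, at 0.52, 0.71, 0.53 and 0.53 with LPS+IFNg, and at 1.59, 1.39, 1.69 and 1.59 with emodin. Its rise with LPS+IFNg was 0.83 (adjusted p 2.35e-06) and with emodin a further 0.99 (adjusted p 6.26e-07). Within arrays the probes' rises with LPS+IFNg differed by 0.53 ± 0.14 (exact two-sided permutation p = 0.0286, the smallest possible with 4 against 4), and their rises with emodin by 0.27 ± 0.10 (exact p = 0.0857). Probes were compared within arrays for Irak2 and Irak4 and not for Irak1, and the p-values do not allow for this choice. Irak2 and Irak3 went apart with emodin: Irak2 minus Irak3 on the same array rose by 2.64 ± 0.11, a pair picked after its values were seen and so without a test.

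**Figure D3:**
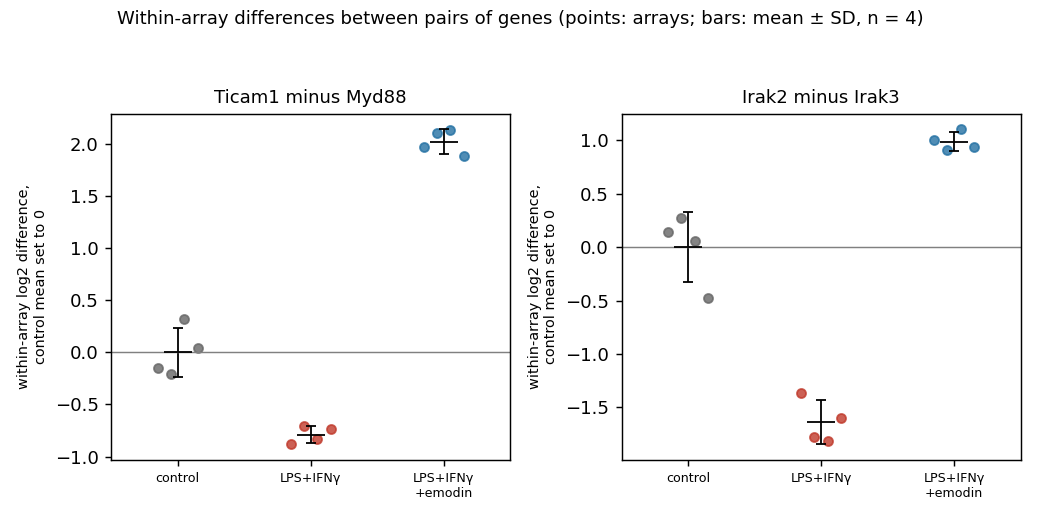
Within-array log2 difference of Ticam1 minus Myd88 (left) and Irak2 minus Irak3 (right), with the control mean set to 0 on the vertical axis; points are arrays and the bars give the mean ± SD of 4 arrays per group. Both differences are below controls in all 4 LPS+IFNg arrays and above controls in all 4 emodin arrays.

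Irak1, a kinase that is modified and degraded once the receptor is engaged, fell with LPS+IFNg and was higher again with emodin, though below controls. Its brightest probe was at 3.27, 3.11, 3.24 and 3.24 in controls, at 2.15, 2.44, 2.39 and 2.24 with LPS+IFNg, and at 2.60, 2.79, 2.72 and 2.79 with emodin. The groups did not overlap. The fall was 0.91 ± 0.08 (adjusted p 8.29e-07), the rise with emodin 0.42 ± 0.08 (adjusted p 0.000498), and the remaining difference from control -0.49 ± 0.08 (adjusted p 0.000117). The other probes, A_52_P149835 and A_55_P2153862, fell by 0.61 and 0.65 and were higher with emodin by 0.39 and 0.36. With spike-in scaling the emodin difference of Irak1 was -0.24, adjusted p 0.195.

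Irak4, the kinase that MYD88 recruits first, gave 1 of the larger falls with emodin by its brighter probe and none by the other. Probe A_52_P67440 was at 0.21, 0.09, 0.29 and 0.19 in controls, at -0.15, -0.01, -0.16 and -0.06 with LPS+IFNg, and at -1.38, -1.18, -1.42 and -1.38 with emodin. The groups did not overlap, and it fell by 0.29 ± 0.07 with LPS+IFNg (adjusted p 0.00419, and 0.0741 without the 4 arrays that oppose their sex labels) and by 1.25 ± 0.07, or 2.38-fold, with emodin (adjusted p 3.76e-08). Probe A_52_P166266, matched to the same RefSeq transcript, was at -1.58, -1.30, -1.46 and -1.47 with LPS+IFNg and at -1.52, -1.32, -1.51 and -1.55 with emodin. Those groups overlapped throughout, and the difference was -0.02 ± 0.09 with an adjusted p of 0.835. Within arrays the probes' changes with emodin differed by -1.23 ± 0.04 (exact two-sided permutation p = 0.0286, the smallest possible). For LPS+IFNg against control they differed by -0.05 ± 0.06 (exact p = 0.314). As for Irak2, these p-values do not allow for the choice of the genes whose probes were compared. A fall of Irak4 with emodin is therefore a result of 1 probe, and why the probes differ was not tested.

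**Figure D4:**
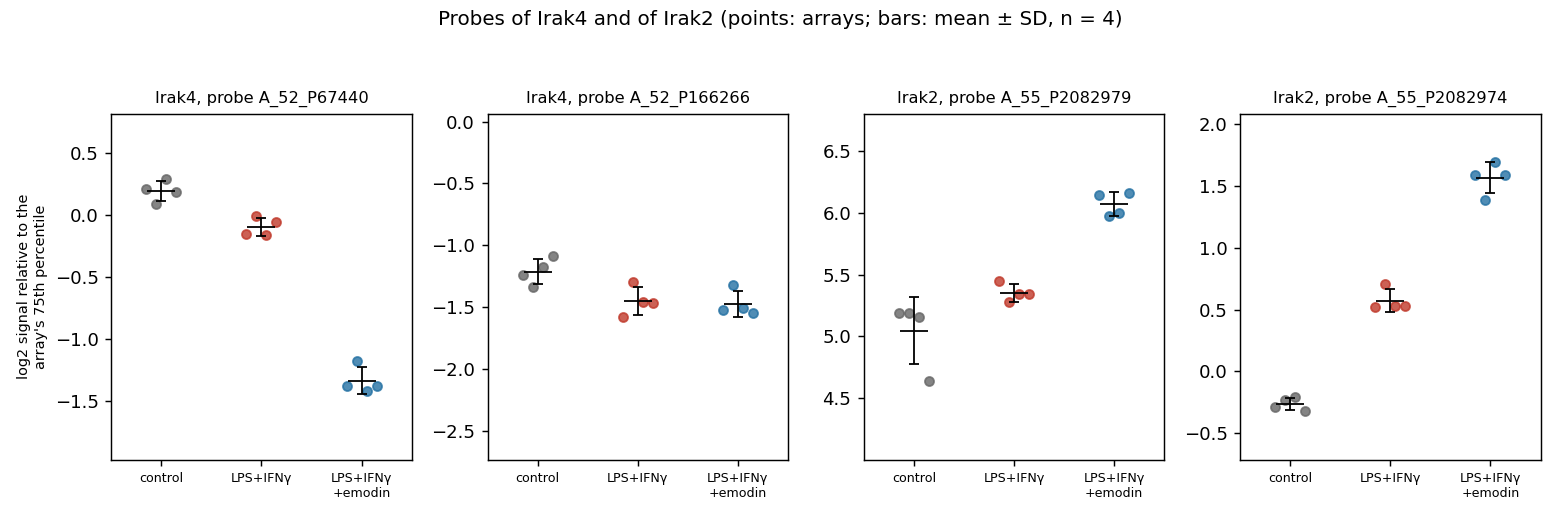
Log2 signal relative to each array's 75th percentile (vertical axis) for each probe of Irak4 (left panels) and of Irak2 (right panels) in the 3 groups; points are arrays and the bars give the mean ± SD of 4 arrays. The Irak4 probe A_52_P67440 is lower in all emodin arrays and the probe A_52_P166266 is not, whereas both Irak2 probes are highest in the emodin arrays.

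Against control, the LPS+IFNg+emodin arrays had 9 members called, beside 78.2% of all genes, with 5 higher and 4 lower, beside 39.0% and 39.2%. The member not called was Irak3. Those at least 2-fold higher were Ticam1, Ticam2 and Irak2, and those at least 2-fold lower were Tirap and Irak4; 17.4% and 21.1% of all genes were so, 38.5% in all. The arrays did not overlap for 8 members, beside 72.3% of all genes. Ticam2 stood at 1.02 ± 0.10 (adjusted p 1.63e-06), Irak2 at 1.02 ± 0.12 (adjusted p 5.88e-06) and Irak4 at -1.54 ± 0.07 (adjusted p 2.55e-09). Irak2 was 0.71 and Ticam2 0.99 with quantile scaling, and each was 0.85 with the percentile over detected probes, called but under 2-fold. By its other probe, A_55_P2082974, Irak2 was above control by 1.83 (adjusted p 1.6e-09). The other Irak4 probe, A_52_P166266, differed from control by -0.26 (adjusted p 0.0166). Across all settings Tirap ran from -1.19 to -0.86 and Irak4 from -1.71 to -0.90, always called but not always 2-fold. This comparison shares its arrays with both others, so its calls add no independent evidence.

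To set the genes that moved most beside their upstream sequence, the 250 bases before the RefSeq start (mouse build GRCm38.p6, 5′ to 3′ on the gene's strand) were searched on both strands for the kappa B consensus, the interferon-stimulated response element core (ISRE), the STAT motif TTCNNNGAA and the AP-1 motif TGANTCA. RefSeq entries were at hand for 7 of the members, with 10 start sites in all. Shown are Irak3, Ticam1 and Myd88, the members with the largest differences in the first comparison or the second, and Irak1, the other member with a match. Capitals mark the bases of a motif match.
Myd88, chr9:119340019-119340268, minus strand: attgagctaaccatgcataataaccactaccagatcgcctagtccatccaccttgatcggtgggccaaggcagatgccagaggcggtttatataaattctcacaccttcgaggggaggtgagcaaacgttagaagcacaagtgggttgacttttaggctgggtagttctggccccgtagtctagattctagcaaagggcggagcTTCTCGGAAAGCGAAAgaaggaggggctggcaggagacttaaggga
Irak1, chrX:74023919-74024168, minus strand: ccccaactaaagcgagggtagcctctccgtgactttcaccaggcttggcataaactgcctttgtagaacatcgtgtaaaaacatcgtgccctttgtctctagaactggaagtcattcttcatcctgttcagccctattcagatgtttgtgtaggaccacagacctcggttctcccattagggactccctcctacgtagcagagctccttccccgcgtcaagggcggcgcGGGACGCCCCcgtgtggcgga
Irak3, chr10:120201598-120201847, minus strand: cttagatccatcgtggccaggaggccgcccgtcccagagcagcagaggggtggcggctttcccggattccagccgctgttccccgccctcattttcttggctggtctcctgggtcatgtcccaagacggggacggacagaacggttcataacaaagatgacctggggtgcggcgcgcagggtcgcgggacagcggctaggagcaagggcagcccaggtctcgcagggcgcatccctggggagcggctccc
Irak3, second start, chr10:120202131-120202380, minus strand: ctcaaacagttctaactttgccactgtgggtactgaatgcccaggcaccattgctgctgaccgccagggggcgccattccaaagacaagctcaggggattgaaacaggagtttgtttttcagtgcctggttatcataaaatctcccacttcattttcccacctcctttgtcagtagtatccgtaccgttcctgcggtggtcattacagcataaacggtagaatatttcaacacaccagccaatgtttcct
Ticam1, chr17:56276768-56277017, minus strand: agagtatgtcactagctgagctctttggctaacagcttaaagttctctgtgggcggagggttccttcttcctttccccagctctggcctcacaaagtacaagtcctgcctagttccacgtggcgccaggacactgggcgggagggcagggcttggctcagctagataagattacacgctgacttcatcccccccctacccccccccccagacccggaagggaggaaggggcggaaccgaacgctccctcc
The Myd88 window holds TTCNNNGAA from 46 to 38 bases and the ISRE core from 40 to 31 bases before the start, so that these matches overlap. The Irak1 window holds a kappa B match from 21 to 12 bases before the start, which its other listed start also includes. Among 32851 mouse windows of 250 bases, 2.98% held the ISRE core, 7.02% TTCNNNGAA, 7.25% the kappa B consensus and 6.75% TGANTCA. None of these 4 motifs was in the windows printed for Irak3 and Ticam1, nor in those of Irak2, Irak4 and Tirap, which says only that those letters are not in these bases.

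For the members called at 2-fold or more in the first or the second comparison, the genes with the most similar levels over the 12 arrays were listed by Pearson correlation. Myd88 was closest to Ifitm3 (r = 0.993), an interferon-induced antiviral membrane protein, then to Aoah (0.992), the enzyme that deacylates LPS, and Enpp4 (0.992). Irak3 was closest to Dst (0.997) and Pcx (0.996), Ticam1 to Fbxo34 (0.997), Ankrd33b (0.995) and Dyrk1a (0.995), Tirap to Ywhab (0.994), Exoc6b (0.992) and Peak1 (0.991), and Irak4 to Iqce (0.995), Zbtb1 (0.994) and Rasal3 (0.994). These 12 points fall into 3 groups and share slides, so the coefficients describe mainly the order of the group means and carry no test.

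Of 10 other genes for the LPS receptor and its handling, 4 rose and 5 fell with LPS+IFNg, beside 33.8% and 35.2% of all genes. Their median log2 difference was -0.28, beside -0.04 for all genes. With emodin 2 rose and 6 fell, beside 35.1% and 36.8%, and the median was -0.60 beside -0.01. With spike-in scaling the counts were 0 and 7, where 1202 and 8522 of all 13168 genes rose and fell. Tlr4, the receptor itself, was at 2.53, 2.62, 2.47 and 2.46 in controls, at 1.88, 1.83, 1.62 and 1.97 with LPS+IFNg, and at -0.09, -0.48, -0.89 and -0.21 with emodin. The groups did not overlap: Tlr4 fell by 0.70 ± 0.15 (adjusted p 0.00131) and then by 2.24 ± 0.15 (adjusted p 9.48e-08), a larger emodin difference than that of any of the 10 members. Cd180, a TLR4 relative, rose by 0.66 with LPS+IFNg and fell by 1.70 ± 0.14 with emodin. Itgam, a chain of complement receptor 3, fell by 1.69 with LPS+IFNg and rose by 0.65 with emodin (-0.01 with spike-in scaling), and Scarb1, a scavenger receptor, fell by 1.54 and 0.61.

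Of 20 kinases and ubiquitin enzymes below the adaptors, 13 rose and 4 fell with LPS+IFNg (median 0.50), beside 33.8% and 35.2% of all genes. With emodin 8 rose and 6 fell (median 0.12), near the 35.1% and 36.8% of all genes. With spike-in scaling none rose and 13 fell with emodin, where 1202 and 8522 of all 13168 genes rose and fell. Traf3, a partner of TICAM1 on the way to TBK1, rose by 1.42 ± 0.13 with LPS+IFNg and by a further 0.66 with emodin, which was -0.01 with spike-in scaling. Traf6, the ubiquitin ligase that IRAKs engage, rose by 1.03 ± 0.09 with LPS+IFNg, and with emodin its difference was 0.11 ± 0.09 (-0.56 with spike-in scaling, adjusted p 0.0121). The pellino ligases, which bind IRAKs, parted: Peli1 rose by 1.99 ± 0.09 and Peli2 fell by 2.02 ± 0.12 with LPS+IFNg, and with emodin they fell by 0.49 and 0.77.

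Of 18 genes listed as inhibitors of the receptor, adaptor and IRAK step, 17 were tested (all but Sarm1). Among them 9 rose and 3 fell with LPS+IFNg (median 0.59), beside 33.8% and 35.2% of all genes. With emodin 4 rose and 7 fell (median -0.13), beside 35.1% and 36.8%. With spike-in scaling none rose and 12 fell, where 1202 and 8522 of all 13168 genes rose and fell. Socs1, an inhibitor of cytokine receptor and TLR signalling, rose by 6.82 ± 0.11 with LPS+IFNg and fell by 2.34 ± 0.11 with emodin. Ptpn6, the phosphatase SHP-1, rose by 1.03 ± 0.07 and fell by 2.04 ± 0.07, to below its control level. Nlrc5 rose by 4.16 and fell by 1.11, and Tnfaip3, the ubiquitin editor A20, rose by 2.75 ± 0.08 and had an emodin difference of -0.13 ± 0.08 (adjusted p 0.192; -0.79 with spike-in scaling and called, adjusted p 7.59e-05). Sigirr, an inhibitory receptor of the interleukin-1 receptor family, fell by 2.21 ± 0.24 with LPS+IFNg, where 3 of 4 arrays were above background. Of 6 genes listed for interleukin-1 family receptors, 3 were tested (all but Il1r2, Il18r1 and Il1rl2), of which 2 rose and 1 fell with emodin. Il1rap, the shared accessory chain, fell by 0.35 with LPS+IFNg (-0.12 with normexp, adjusted p 0.204) and rose by 1.57 ± 0.11 with emodin (0.90 with spike-in scaling). Il18rap was above background in the emodin group alone, at least 3.12-fold higher than with LPS+IFNg, and Il1r1 fell by 1.88 with emodin, where 2 of 4 arrays were above background; with normexp its difference was -0.55 (adjusted p 0.0930).

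Genes known as targets of the MYD88 arm, 9 tested of 10, all rose with LPS+IFNg (median 5.11). With emodin 1 rose and 5 fell (median -0.67), or none and 7 with spike-in scaling. Of all 13168 genes 33.8% rose with LPS+IFNg, and with emodin 35.1% rose and 36.8% fell, or 1202 and 8522 genes with spike-in scaling. Il1b fell by 3.78 ± 0.43 with emodin, Ptgs2 by 1.83 ± 0.27, Il6 by 1.65 ± 0.40 and Tnf by 0.67 ± 0.11. Ptgs2 and Il6 were not above background in controls, which makes their rises with LPS+IFNg at least 3176-fold and at least 1128-fold. All 8 genes known as targets of the TICAM1 arm also rose with LPS+IFNg (median 6.54). With emodin 7 of the 8 fell (median -1.88), among them Cxcl10 by 3.13 ± 0.26, Ccl5 by 2.05 ± 0.22 and Irf7 by 1.96 ± 0.18, while Ticam1 itself rose. The exception was Ifnb1, the gene of interferon beta, which rose by 1.30 ± 0.22 (adjusted p 0.000257) and by 0.63 with spike-in scaling (adjusted p 0.0206). Ifnb1 was not above background in controls, and the LPS+IFNg arrays were at least 7.23-fold higher. Some of these target genes also respond to IFNg, which was given together with LPS, and the parts of LPS and of IFNg cannot be told apart.

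**Figure D5:**
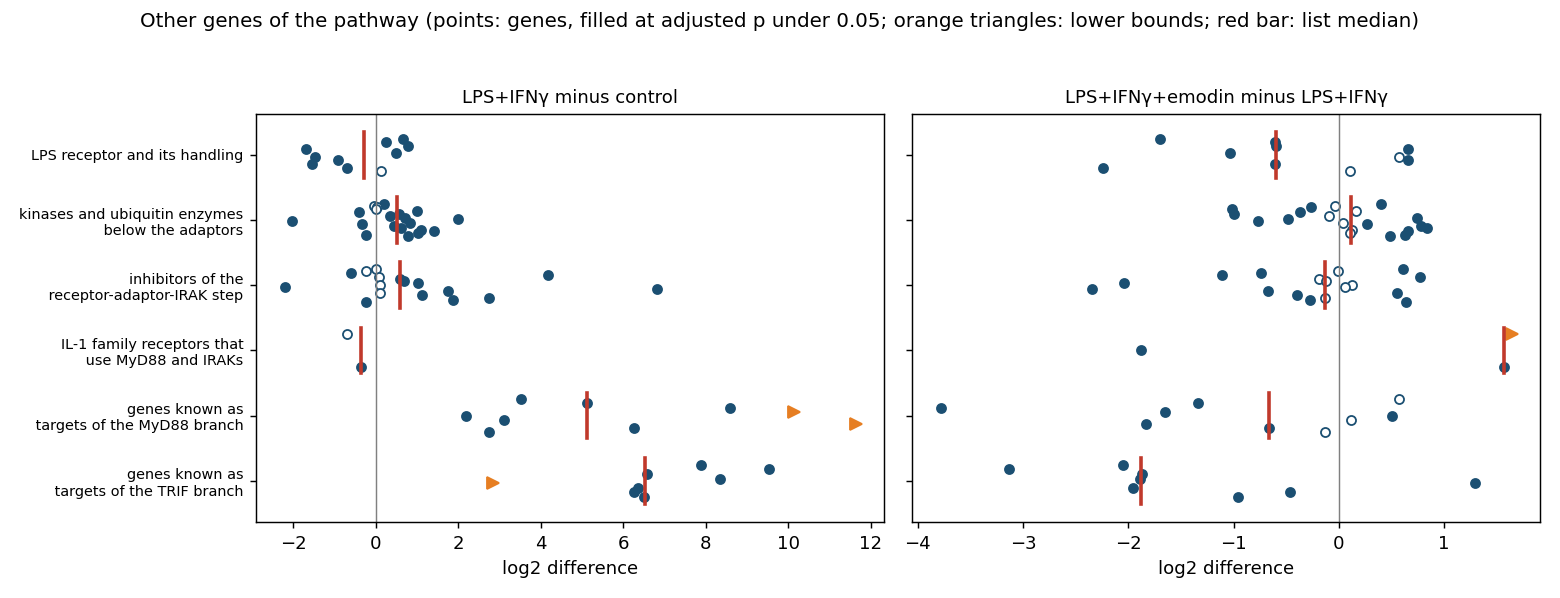
Log2 difference (horizontal axis, with a different range in each panel) of each tested gene in the 6 lists of other pathway genes, for LPS+IFNg minus control (left) and LPS+IFNg+emodin minus LPS+IFNg (right); points are genes, filled at an adjusted p under 0.05, orange triangles are lower bounds for genes not above background in the dimmer group, and red bars are list medians. Il18rap is not drawn on the left because it was above background in neither group there; all known targets lie right of 0 on the left, and most lie left of 0 on the right, with Ifnb1 at 1.30.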

How the data were processed

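Gene expression was measured on 12 one-colour arrays, 4 per group. Intensity values per spot were deposited as output of Agilent Feature Extraction 10.7.3.1, as the submitters' processing notes say. Per the file headers, this processed signal has its background removed and no scaling between arrays. The deposited value table holds log2 values centred per probe, and served as an alternative only; 3 of its control columns (1, 3 and 4) carry the values of another control's scanner file. Here the log2 processed signal had each array's 75th percentile subtracted, outlier spots were dropped, and a probe was kept (27375 of 55681) if some group had it well above background on each of its 4 arrays. Accessions were matched to RefSeq for names (27509 probes), and the brightest kept probe on average stood for each of 13168 genes, 3353 of which had several kept probes. limma 3.58.1 in R 4.3.3 was fitted to all 12 arrays with 9 residual and 2.50 prior degrees of freedom, and a gene was called at a two-sided Benjamini-Hochberg adjusted p under 0.05; the code was tested on simulated data. No depth exists for arrays, and their number limits the precision.

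The members and gene lists were chosen with earlier results of these data known. Every member is named whatever its values; of the other lists Tlr4 and up to 4 called genes with the largest change in LPS+IFNg against control or in emodin against LPS+IFNg are named. Traf6, Ptpn6, Irf7 and Ifnb1 were named after their values were seen. For members that changed at least 2-fold, the 3 genes most alike over the arrays are named, of which 1 is not reported here. An "at least" fold sets the brighter group's mean against the lowest signal well above background. Same-numbered LPS+IFNg and emodin arrays deviated together from their group means (correlations 0.229, 0.283, 0.162 and 0.150), so their numbers may mark pairs. Differently numbered arrays of those groups gave -0.243 to 0.047. Control numbers did not mark pairs (-0.186 to 0.141). Yet control replicate 4 gave 0.315 with LPS+IFNg replicate 2 and 0.297 with emodin replicate 2, so values of this size also arose between unlike numbers. The main fit and the permutation tests left this possible pairing out, and only the replicate block took it in. Alternatives were spike-in scaling, quantile scaling, a percentile over probes detected on all arrays, normexp on the median signal (offset 50, since the mean signal was not in the files used), other probe rules, fits to 8 arrays, the replicate block, the deposited value table and leaving out arrays.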

Additional observations from a re-analysis of the deposited data

Results flagged for a closer look

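Among 42 sets of 4 arrays, 14 probes in 3 groups, Dixon's test singled out 4 arrays; chance gives about 1 in 20 sets. For Cd14, LPS+IFNg replicate 1 was at 5.62, with the next array at 5.22. For Irak2, control replicate 4 was at 4.64 by probe A_55_P2082979, with the next control at 5.16, and the same array was not apart by the other probe, at -0.32. By probe A_55_P2082974, LPS+IFNg replicate 2 was at 0.71 and the next array at 0.53. For Irak4, emodin replicate 2 was at -1.18 by probe A_52_P67440, with the next at -1.38.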

How the results depend on the processing

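Of 730 recomputed differences of single members, 699 kept their direction and their side of the threshold, 18 lost a call, 4 gained one and 9 changed sign. The changes of sign came in differences that were not called, except that of Irak1 under spike-in scaling. For emodin against LPS+IFNg, spike-in scaling gave -0.49 for Cd14, -0.50 for Ticam2 and -0.24 for Irak1, and Ly96 turned to 0.015 without replicate 3 of both treated groups and without the 4 arrays that oppose their sex labels. For emodin against control, Irak3 was -0.14 with the percentile over detected probes, -0.12 with normexp, and between -0.018 and 0.092 when 1 array was left out, below 0 without control replicate 2 or emodin replicate 4. The calls lost were those of Irak2 with LPS+IFNg (also 0.10 with quantile scaling, adjusted p 0.381) and, under spike-in scaling, with emodin against LPS+IFNg, of Cd14 with emodin against control (0.17 with quantile scaling, adjusted p 0.287), and of Irak4 with LPS+IFNg without the 4 arrays (-0.22, adjusted p 0.0741), a setting chosen after seeing the data. With the replicate block over the 8 arrays of a comparison, 7, 7 and 9 members were called, and over 12 arrays 8, 7 and 9; the block over 8 arrays ended the Irak2 call with LPS+IFNg and changed no other member's call. Leaving out 1 array gave 8619 to 9111, 9069 to 9589 and 9965 to 10340 genes called in the 3 comparisons. Another scaling shifted the split of calls for LPS+IFNg against control from 4447 higher and 4634 lower to 3798 and 5575 (percentile over detected probes) or 3887 and 5459 (quantile scaling), with the median gene at -0.16 and -0.13 instead of -0.04. Dropping the filter gave 7843 higher and 4780 lower with the median gene at 0.22, but over a larger set of 20887 genes instead of 13168. The cause of these shifts was not tested.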
